A study of Eriocheir sinensis with 6 samples.

Results

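The genes of chromosome CM024162.1 of the Chinese mitten crab (Eriocheir sinensis) were followed in muscle across the molt. All predicted genes of the deposited expression table whose identifier places them on this chromosome were taken, 202 of 18729 genes in the table. They are called here by the last number of their identifier, which gives their order along the chromosome, so that gene 226 is evm.TU.CM024162.1.226. The chromosome, and within it genes 226 to 231, were selected on the difference between post-molt and pre-molt muscle in these same libraries. Levels and fold changes of the genes are therefore given as a description, without p-values, and a call only says that a gene passed the thresholds of the fit over all genes.

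The libraries came from muscle of farmed juvenile crabs of 8.41 ± 1.47 g on average, kept at 20 °C. The pre-molt group (stage D, with the old shell still on) and the post-molt group (stage A, just out of it) held 3 libraries each. The labels describe the muscle of each crab as collected separately. Both groups were untreated animals, and molt stage was the only label that differed between them. Depth, as fragments recovered from the deposited values, was 5810064 to 6768306 before the molt and 4168751 to 5117246 after it. The precision for weakly expressed genes was therefore lower after the molt.

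Crabs grow by molting, under the control of steroid hormones, the ecdysteroids. Limb muscle of crustaceans shrinks before the shell is cast off and is rebuilt afterwards. Neighbouring genes of a chromosome can share open chromatin or regulatory elements, and many arose as copies of each other, so genes that lie side by side are often looked at together. The files gave no name beyond a prediction label to any of the genes (0 of 26 with a name cell), and 0 of 202 identifiers matched the reference gene table. No role can therefore be stated for a gene, it is not known here whether neighbours are copies, and muscle markers could not be looked up. Muscle samples hold several cell types, and a change in the share of a cell type cannot be told apart from a change per cell.

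Order numbers on the chromosome ran from 1 to 408, and the 206 numbers that are not listed were not analysed here. Of the 202 listed genes, 193 had a mean of at least 0.5 FPKM (fragments scaled by gene length and a library size) over the 6 libraries and entered the fit. The library size behind the FPKM values was 3679730 to 4951105 before and 1168523 to 1759700 after the molt. It lay below the recovered fragments in every library and differed more between the stages than they did. Most of the listed genes were active in both stages, with a mean of at least 1 FPKM for 164 genes in pre-molt and 171 genes in post-molt muscle. Every gene listed in the series reached at least 1.00 FPKM in its highest library, which favours such counts. They say nothing of the numbers that are not listed. Among tested genes the median of the stage means was 3.58 FPKM in pre-molt and 5.43 FPKM in post-molt, and the highest was 3354 and 6998 FPKM. The summed FPKM of the chromosome was 8081 ± 1077 before and 15042 ± 478 after the molt (SD, n = 3). The FPKM totals of all genes differed too, at 1115970 to 1463550 before and 2772130 to 3753650 after. As a share of these totals the chromosome held 0.613% ± 0.0275 before and 0.460% ± 0.0590 after the molt, so sum and share moved in opposite directions.

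Of the 193 tested genes, 23 were called higher and 4 lower in post-molt muscle (limma, Benjamini-Hochberg adjusted p of 0.05 or less over all genes and a log2 fold change of at least 1 in size). That was 14.0% of the genes, where 7.54% of all 17465 tested genes were called. Higher calls made up 11.9%, beside 5.93% over all genes, and lower calls 2.07%, beside 1.60%. Among the 71 chromosomes with at least 50 tested genes, this share of calls ranked 2 from the top, in a range of 0.990% to 17.0%, but the chromosome had been chosen with these differences known and nothing is read from its rank. The median log2 fold change was −0.04 over its tested genes and −0.09 over all genes. Every post-molt library lay above every pre-molt library in 36 genes (18.7%, with 14.2% over all genes) and below in 28 (14.5%, with 12.5%), among them all 27 called genes. With edgeR's quasi-likelihood test on the recovered fragments 24 genes were called higher (8.78% over all genes) and 3 lower (2.50%), and 24 calls were shared with limma.

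**Figure D1:**
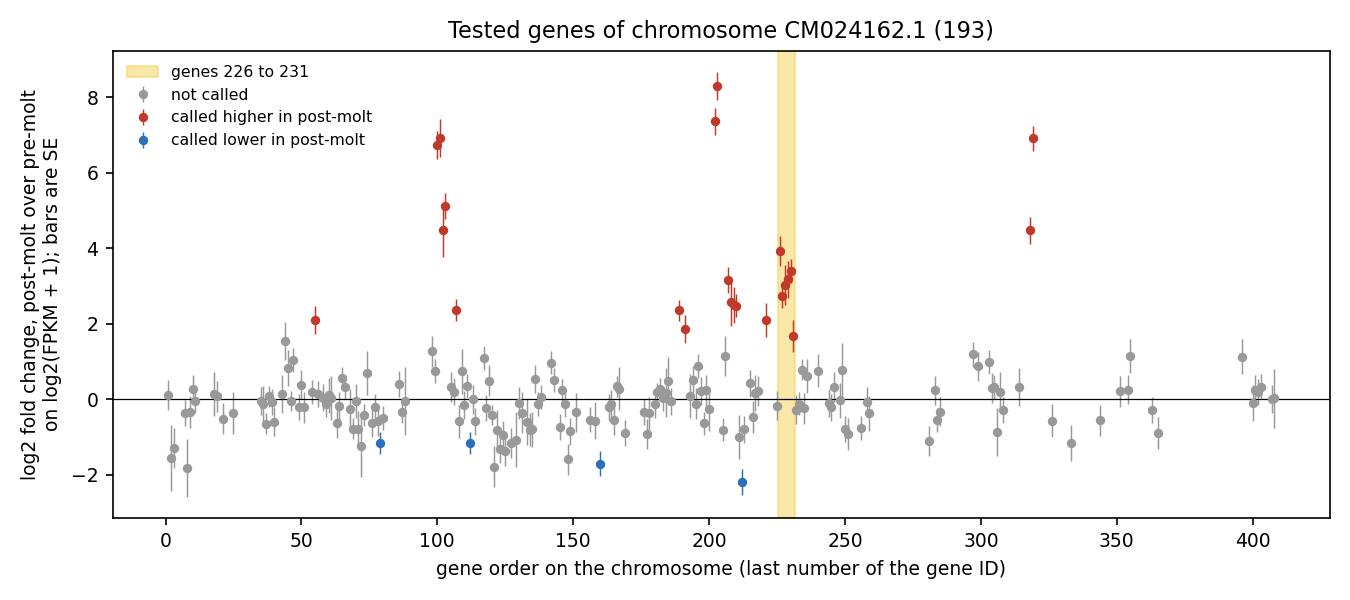
Log2 fold change of post-molt over pre-molt muscle, on log2(FPKM + 1), for the 193 tested genes against their order number; bars are the SE from limma. Red points are the 23 genes called higher, blue points the 4 called lower, and the shaded band marks genes 226 to 231; the red points sit mostly in small groups of neighbours, while most grey points lie near 0.

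Many of the higher genes were neighbours. Of the 23, 20 lay in 6 runs of 2 or more called genes that follow each other among the tested genes, and 3 (genes 55, 107 and 221) stood alone. The count includes the 6 genes of the selected stretch, and such runs were not counted on other chromosomes. The runs were genes 100 to 103, genes 189 and 191, genes 202 and 203, genes 207 to 210, genes 226 to 231, and genes 318 and 319. Within them, number 190 was the only one not listed. The stretch from 226 to 231 was the longest, with 6 genes. The 4 lower genes (79, 112, 160 and 212) were all single.

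Genes 226 to 231 were all called higher in post-molt muscle, with a median log2 fold change of 3.10. Their summed level was 329, 197 and 126 FPKM in post-molt replicates 1, 2 and 3, and 38.3, 62.5 and 35.1 FPKM in pre-molt replicates 1, 2 and 3. The lowest post-molt sum was thus just over 2 times the highest pre-molt sum, and the means, 217 ± 103 and 45.3 ± 15.0 FPKM (SD, n = 3), differed 4.79-fold. This separation depends on the scaling. As shares of the FPKM total the stretch held 0.0119%, 0.00575% and 0.00335% in post-molt and 0.00278%, 0.00427% and 0.00315% in pre-molt replicates 1, 2 and 3, where the stages overlap, and with TPM the log2 ratio of the sums was 1.04 in place of 2.26. Most of both FPKM sums came from gene 231. Without it the sum was 66.4 ± 26.8 FPKM after and 1.56 ± 0.471 FPKM before the molt, a 42.5-fold difference.

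Only 1 of the 6 genes, gene 231, was on before the molt at a mean of 1 FPKM or more. The other 5 were between 0 and 0.735 FPKM in every pre-molt library, so a rise in a gene already active describes gene 231 only.

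Gene 231, at the end of the stretch, was measured at 232, 139 and 80.4 FPKM in post-molt replicates 1, 2 and 3. In pre-molt replicates 1, 2 and 3 it was at 36.6, 61.5 and 33.2 FPKM. The stages did not overlap, but the lowest post-molt and the highest pre-molt library were close. Mean FPKM was 3.44-fold higher in post-molt (log2 fold change 1.68, SE 0.43), on 164 to 713 fragments a library after and 287 to 395 before the molt. It was the smallest rise of the 6 and lay nearest to the thresholds: it was called under only 7 of 18 alternative settings. Without post-molt replicate 1, its highest library, the log2 fold change was 1.31 and the gene was not called. When every library was rescaled to a common FPKM sum (TPM), it was 0.37.

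Gene 226 opened the stretch and was the longest gene model tested on the chromosome, at 11470 bases. It was at 36.1, 24.4 and 13.6 FPKM in post-molt replicates 1, 2 and 3. It was at 0.735, 0.403 and 0.599 FPKM in pre-molt replicates 1, 2 and 3. Even the lowest post-molt library was far above all pre-molt libraries. With 182 to 728 fragments a library after and 17 to 38 before the molt, it was the best measured of the 5 genes that were low before the molt. Mean FPKM was 42.6-fold higher (log2 fold change 3.93, SE 0.39), and the gene was called under all 18 alternatives. With TPM its log2 fold change was 2.48.

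Genes 227, 228 and 229 rose from a few fragments. Gene 227 was at 8.06, 7.22 and 8.97 FPKM in post-molt replicates 1, 2 and 3 (23, 14 and 17 fragments) and at 0.547, 0.168 and 0.374 FPKM in pre-molt replicates 1, 2 and 3 (4, 1 and 3 fragments). Its post-molt libraries were the most alike of the stretch, and mean FPKM was 22.3-fold higher (log2 fold change 2.74, SE 0.32). Gene 228 was at 21.7, 8.0 and 4.54 FPKM in the post-molt replicates in the same order, and at 0.471, 0 and 0.429 FPKM in the pre-molt replicates. Its post-molt libraries thus differed widely among themselves while staying above every pre-molt library, and the lowest held 5 fragments. Mean FPKM was 38.1-fold higher (log2 fold change 3.02, SE 0.52) and 20.9-fold without post-molt replicate 1. Leaving out each pre-molt library in turn gave 25.4-fold to 53.3-fold. Without pre-molt replicate 2 gene 228 was not called (log2 fold change 2.85). Gene 229 was at 23.5, 7.06 and 7.22 FPKM in the post-molt replicates and at 0, 0.459 and 0.511 FPKM in the pre-molt replicates. Post-molt replicate 1 stood far above the other two, and mean FPKM was 39.0-fold higher (log2 fold change 3.17, SE 0.49), and 22.1-fold without that library.

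Gene 230 was at 7.29, 10.7 and 11.0 FPKM in post-molt replicates 1, 2 and 3 and at 0 in every pre-molt library. These values match 1 fragment in each post-molt library for a gene of 78 bases, the smallest whole numbers that give them; a multiple of both would give the same FPKM, and the length was not listed for this gene. With 3 fragments in all no fold is given. The gene was called by limma, which reads FPKM without their depth (log2 fold change 3.39), but not by edgeR or DESeq2 on the fragments. The unbroken run of 6 rests on it. Whether its fragments overlap a neighbouring gene was not tested, as neither the strand setting of the counting nor gene coordinates were known here.

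The nearest listed neighbours on both sides were not called. Gene 225, just before the stretch, was at 3.63, 8.02 and 2.73 FPKM in post-molt replicates 1, 2 and 3 and at 5.43, 5.21 and 4.52 FPKM in pre-molt replicates 1, 2 and 3 (log2 fold change −0.17, SE 0.39). Gene 232, just after it, ranged from 0.541 to 1.82 FPKM before and from 0.382 to 1.12 FPKM after the molt (log2 fold change −0.27, SE 0.38). In both the stages overlapped, and neither was called. Gene 233 was likewise not called (log2 fold change −0.12), nor was gene 218 (0.22). With TPM genes 225 and 233 were called lower, at −1.03 and −1.24. Gene 234 had post-molt libraries above all pre-molt ones, at 40.8 ± 5.68 and 23.4 ± 4.63 FPKM (SD, n = 3), but its log2 fold change of 0.78 was under the threshold. Gene 221, which lies before 225 with the numbers between them not listed, was called higher, at 7.78 ± 3.26 against 1.04 ± 0.808 FPKM (log2 fold change 2.11, SE 0.44).

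**Figure D2:**
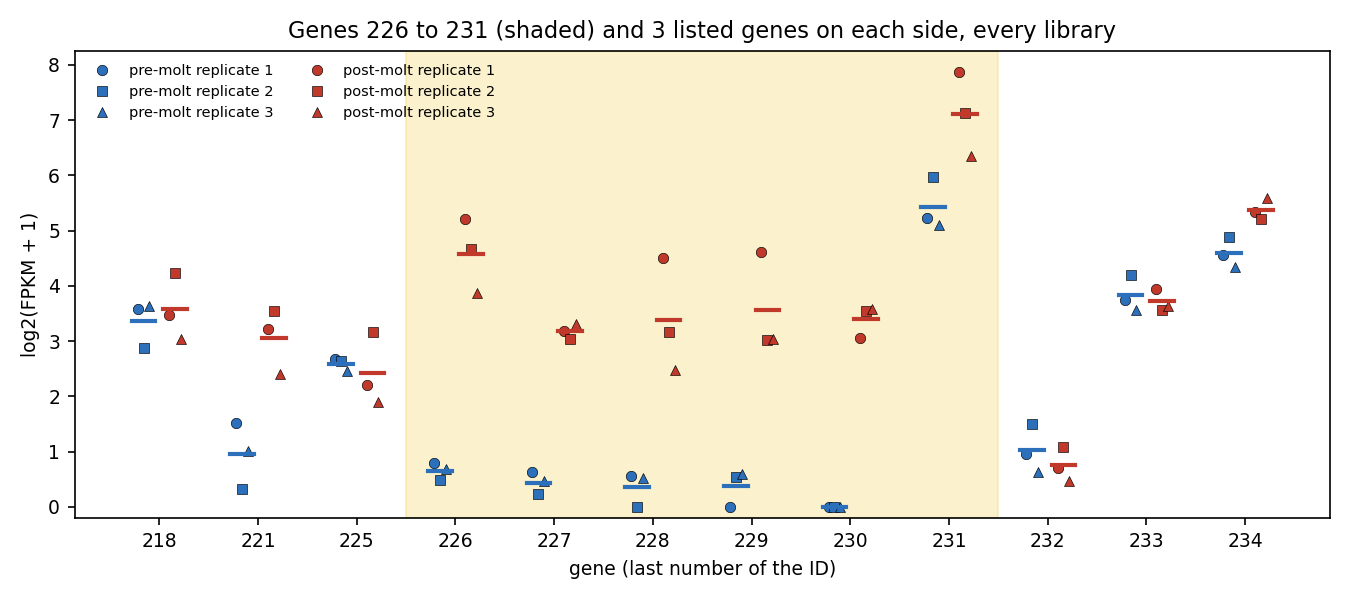
Level of genes 226 to 231 (shaded) and of the 3 listed genes on each side in every library, as log2(FPKM + 1); blue symbols are pre-molt and red symbols post-molt libraries, the symbol shape gives the replicate, and short lines are stage means. Only gene 231 starts from a high pre-molt level (mean 43.8 FPKM), the other 5 shaded genes start below 1 FPKM, and genes 225 and 232 show overlapping stages.

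Within a stage the libraries of these genes varied as follows, as a description, since a call uses this spread. The SD of log2(FPKM + 1) among post-molt libraries was 0.139 to 1.03 over the 6 genes, with a median of 0.718, where the 193 tested genes of the chromosome had a median of 0.514. Post-molt replicate 1 was the highest post-molt library in 4 of the 6 genes and post-molt replicate 3 in the other two, genes 227 and 230. Outside the stretch post-molt replicate 1 was the highest in 12 of 17 genes called higher. Over all tested genes of the chromosome it was the highest in 37.3%, and over all tested genes of the series in 33.7%. Post-molt replicate 1 was also the deepest post-molt library, and the part of depth in these counts was not tested.

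Genes 100 to 103 were off before the molt, with 0 or 1 fragment of each in a pre-molt library. Their summed level was 582, 209 and 255 FPKM in post-molt replicates 1, 2 and 3 and 0, 0 and 1.19 FPKM in pre-molt replicates 1, 2 and 3. Post-molt replicate 1 stood well above the other two, while all 3 were far above pre-molt. Log2 fold changes were 6.73 for gene 100, 6.92 for gene 101, 4.49 for gene 102 and 5.13 for gene 103.

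Genes 101 and 102 had no pre-molt fragment, and taking 3 fragments over the 3 pre-molt libraries as the floor they were at least 225-fold and at least 43.2-fold higher after the molt. Gene 101 was at 287, 74.6 and 81.2 FPKM in post-molt replicates 1, 2 and 3. Gene 102 was also uneven, at 54.9, 5.21 and 32.0 FPKM in post-molt replicates 1, 2 and 3, with 2 fragments in replicate 2. Without post-molt replicate 1 the bounds were 119-fold for gene 101 and 26.2-fold for gene 102. Without pre-molt replicate 1 they were 148 and 28.3, and without pre-molt replicate 3 they were 140 and 26.9. These drops on the pre-molt side only reflect the same floor of 3 fragments set over fewer libraries. Genes 100 and 103 each had 1 pre-molt fragment. Pooled fragments per library size behind the FPKM values were 583-fold higher for gene 100 (exact 95% interval 103 to 23162). For gene 103 they were 198-fold higher (34.2 to 7929), and both intervals cover counting error only. Recovered fragments differed less between the stages than these library sizes did. Ratios and bounds per recovered fragment would therefore be lower for genes 100 to 103. The same holds for the FPKM ratios given for the other genes called higher. All 4 were called under all 18 alternatives. Their gene models were short, 321 to 360 bases.

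Genes 203 and 202 had the highest and the second highest log2 fold change of the chromosome on log2(FPKM + 1), an order that depends on the pseudocount. With edgeR on the fragments gene 101 came first, at 10.23, and genes 203 and 202 were at 9.10 and 8.84. Gene 203 was at 1139, 894 and 461 FPKM in post-molt replicates 1, 2 and 3 and at 1.19, 1.56 and 1.70 FPKM in pre-molt replicates 1, 2 and 3. It was below the median level of the chromosome's tested genes before the molt and was one of the chromosome's 5 most abundant genes by the mean over the 6 libraries. Mean FPKM was 562-fold higher (log2 fold change 8.30, SE 0.37). Gene 202 was at 390, 242 and 167 FPKM in the post-molt and at 0.584, 0.358 and 0.665 FPKM in the pre-molt replicates, in the same order. Mean FPKM was 498-fold higher (log2 fold change 7.36, SE 0.35). With TPM the log2 fold change was 6.80 for gene 203 and 5.77 for gene 202. In both genes post-molt replicate 1 was the highest library, as in genes 226, 228, 229 and 231.

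Genes 318 and 319 rose as a pair too. Gene 319 was at 649, 455 and 402 FPKM in post-molt replicates 1, 2 and 3 and at 4.77, 2.92 and 2.03 FPKM in pre-molt replicates 1, 2 and 3, 155-fold higher on average (log2 fold change 6.91, SE 0.34). Gene 318 was at 29.6, 25.6 and 13.7 FPKM in post-molt, and 1 fragment was recovered from the pre-molt libraries together. Its pooled ratio per library size behind the FPKM values was 628 (exact 95% interval 111 to 24925), with a log2 fold change of 4.47 (SE 0.37). Per recovered fragment this ratio too would be lower. Both rose, but gene 318 stayed at a far lower level than its neighbour. With TPM the log2 fold change was 5.49 for gene 319 and 2.91 for gene 318.

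Of the runs outside the stretch, genes 207 to 210 and genes 189 and 191 came closest to a moderate rise in genes already on. Genes 231, 107 and 55 had higher pre-molt means than genes 207 to 210, at 43.8, 5.04 and 3.58 FPKM. Their log2 fold changes were smaller, at 1.68, 2.36 and 2.09. Genes 207 to 210 had pre-molt means of 1.35 to 2.10 FPKM, and their summed level went from 6.92 ± 0.585 FPKM in pre-molt to 66.6 ± 14.7 FPKM in post-molt (SD, n = 3), 9.62-fold. Their log2 fold changes lay between 2.48 and 3.16. Gene 207 was at 22.3, 21.9 and 35.4 FPKM in post-molt replicates 1, 2 and 3 and at 1.93, 2.96 and 1.32 FPKM in pre-molt replicates 1, 2 and 3, without overlap. Genes 207 and 210 were called under all 18 alternatives, gene 209 under 15 and gene 208 under 10. Gene 208 had 0 to 9 fragments a library.

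Gene 189 varied little within a stage, at 23.8, 21.1 and 19.2 FPKM in post-molt replicates 1, 2 and 3 and at 3.52, 3.02 and 3.51 FPKM in pre-molt replicates 1, 2 and 3. That is 6.38-fold (log2 fold change 2.36, SE 0.28), on 82 to 309 fragments a library. Genes 55, 107, 191 and 210 lie outside the naming rule and were named after their values were seen, to complete the account of the higher genes. Gene 191 was 4.61-fold higher (log2 fold change 1.86, SE 0.38), and 7.19-fold without pre-molt replicate 3. The single gene 107 had the same log2 fold change as gene 189 and went from 5.04 ± 0.995 to 29.9 ± 3.57 FPKM (SD, n = 3; log2 fold change 2.36, SE 0.28). Gene 55 went from 3.58 ± 1.86 to 18.0 ± 4.89 FPKM (log2 fold change 2.09, SE 0.38).

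**Figure D3:**
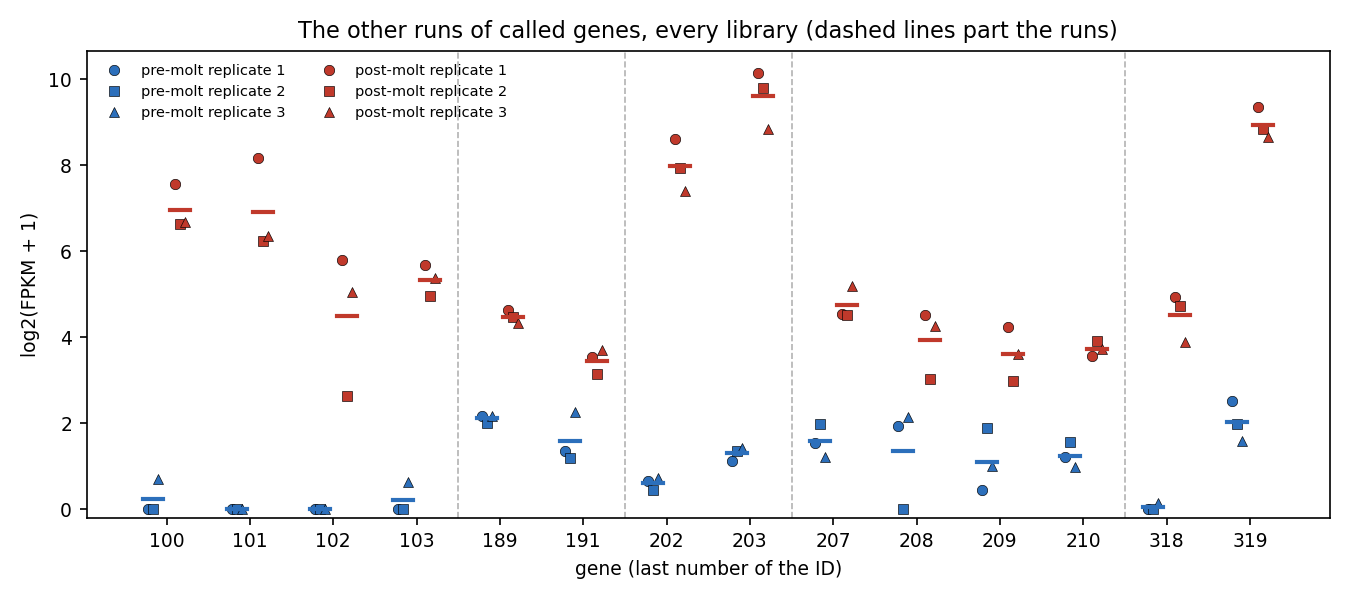
Level of each called gene of the other runs in every library, as log2(FPKM + 1), with colours and symbols as for the stretch; dashed lines part the runs. Genes 100 to 103 and 318 start at or near 0 before the molt, genes 202 and 203 reach log2 fold changes of 7.36 and 8.30 on this scale, and genes 207 to 210 start between 1.35 and 2.10 FPKM on average.

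Split by their level before the molt, 12 of the 23 higher genes had a pre-molt mean of at least 1 FPKM and 11 were below it. The former had a median log2 fold change of 2.42, from 1.68 for gene 231 to 8.30 for gene 203, and the latter a median of 4.47, from 2.74 to 7.36. The 5 low genes of the stretch, at 2.74 to 3.93, lay at the lower end of the genes under 1 FPKM before the molt (of 11, they were the 5 smallest). Gene 231 was the smallest of the genes at 1 FPKM or more. The 17 higher genes outside the stretch had a median log2 fold change of 3.16, close to the 3.10 of the stretch.

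**Figure D4:**
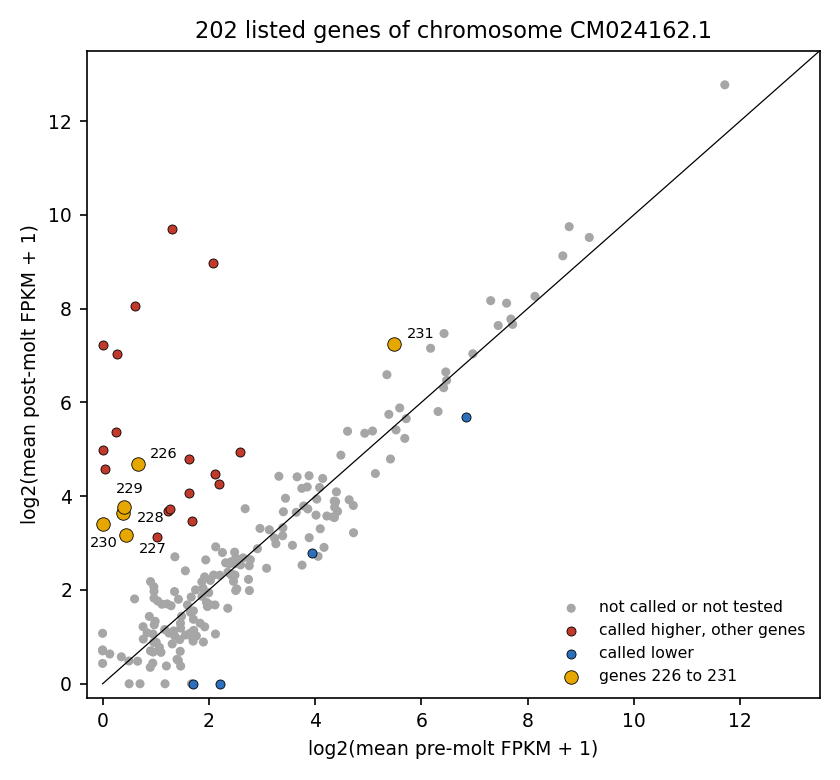
Mean post-molt against mean pre-molt level of the 202 listed genes, both as log2(mean FPKM + 1); the line marks equal levels. Genes 226 to 230 (yellow) sit at the low left among genes that were nearly off before the molt, below the strongest risers, while gene 231 lies at a high level in both stages, 43.8 and 151 FPKM, just above the main cloud.

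The log2 fold changes of the 4 lower genes lay between −2.19 (gene 212) and −1.15 (gene 112). Gene 212 had no fragment in any post-molt library and was at 2.63, 4.14 and 4.10 FPKM in pre-molt replicates 1, 2 and 3 (7, 9 and 12 fragments). With 3 fragments over the post-molt libraries as the floor, it was at least 2.94-fold lower. Gene 160 was likewise at 0 in all post-molt libraries, from 3 to 4 fragments in each pre-molt library, which allows only a bound of 1.06-fold. Gene 79 fell from 113 ± 16.2 to 50.8 ± 12.8 FPKM, and gene 112 from 14.3 ± 0.949 to 5.95 ± 1.15 FPKM (SD, n = 3). These calls were fragile: under the alternatives gene 79 was called 6 of 18 times, gene 112 9 of 18 times, gene 160 10 of 17 times and gene 212 15 of 17 times. Of these 4, gene 212 alone was called in limma without pre-molt replicate 1, 2 or 3, each left out in turn. Without post-molt replicate 1 the same floor lies over fewer libraries. The bound of gene 212 was then 1.69-fold, and no fold can be given for gene 160.

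The abundant genes of the chromosome were mostly not called. Gene 47 held the largest part of its FPKM, at 5164, 7361 and 8470 FPKM in post-molt replicates 1, 2 and 3 and at 3472, 3655 and 2936 FPKM in pre-molt replicates 1, 2 and 3. Its stages did not overlap, and its log2 fold change of 1.04 (SE 0.31) did not pass the adjusted threshold. With TPM it was −0.29, in the other direction. Genes 50, 142 and 143 had log2 fold changes of 0.39, 0.97 and 0.51 and were not called either, and with TPM theirs were −0.93, −0.36 and −0.81, also in the other direction. Quantile normalization gave negative values too, at −0.28, −0.63, −0.03 and −0.40 for genes 47, 50, 142 and 143. Gene 203, the remaining one of the 5 most abundant, was called by limma. DESeq2 on the fragments also called gene 47 higher, with a log2 fold change of 1.04.

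The study listed genes that changed in both expression and chromatin accessibility from a molt stage to the next, and chose them partly on these libraries, so the lists are no independent evidence. Of the genes on the chromosome, 19 stood in such a list, 18 were tested and 7 were called here, all higher. Over all tested genes 5.93% were called higher. Calls among list members on other chromosomes were not counted, so these counts say nothing particular about this chromosome. Gene 228 was the only gene of genes 226 to 231 among them, in the list marked up between pre-molt and molt, with genes 203, 209 and 318. In that list 4 of 5 tested genes of the chromosome were called higher, with a median log2 fold change of 3.02. Genes 189, 202, 207 and 209 stood in the list marked down between post-molt and inter-molt, where 4 of 7 tested genes were called higher with a median of 2.36. Gene 189 was also in the list marked up between molt and post-molt. The remaining 20 called genes were in none.

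How the libraries were scaled changed the balance of calls, on the chromosome as over all genes. With TPM the median log2 fold change over all genes moved from −0.09 to −0.78 and that of the chromosome from −0.04 to −0.85. On the chromosome 18 genes were then called higher and 62 lower, so higher genes were 22.5% of its calls in place of 85.2%. Over all 17465 tested genes TPM called 601 higher and 5889 lower, in place of 1036 and 280. The 6 genes of the stretch kept their direction, with a median of 1.77. The cause of the shift was not tested.

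**Figure D5:**
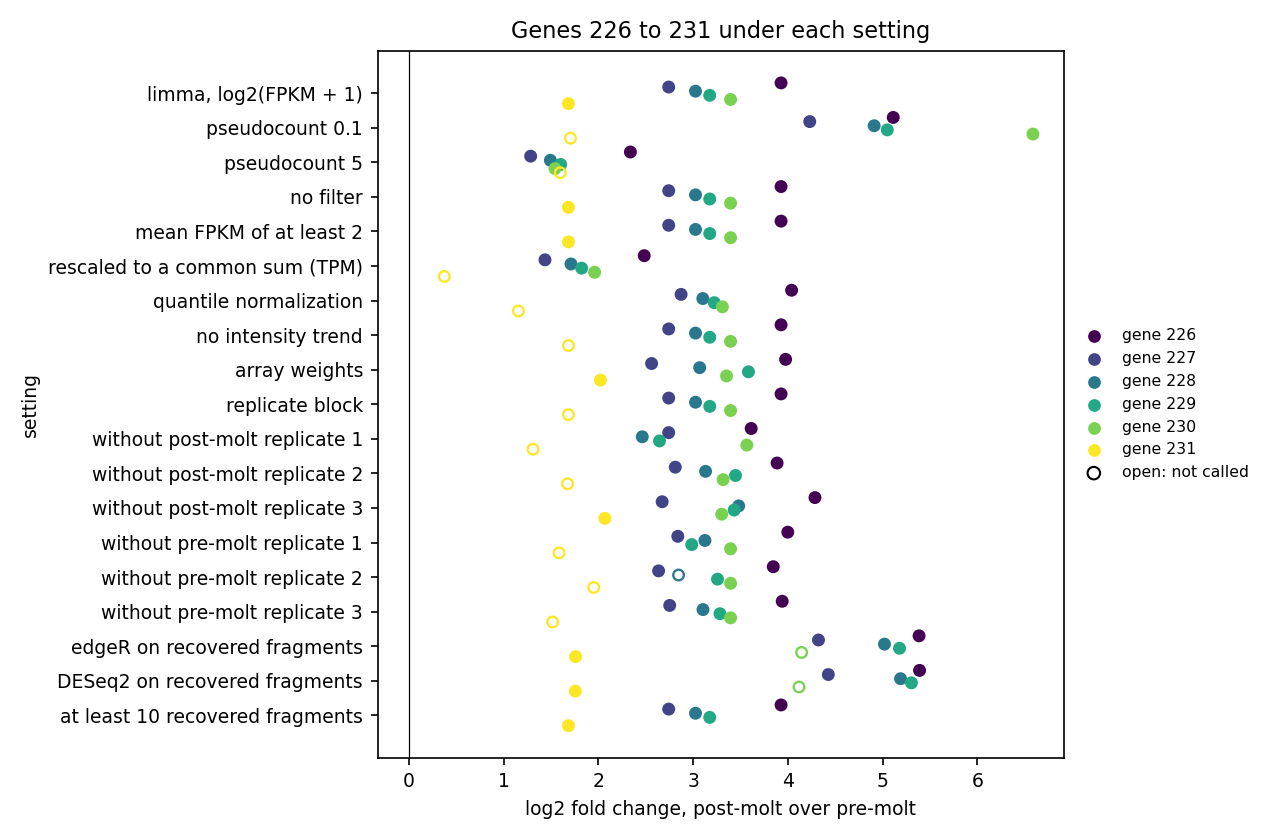
Log2 fold change of genes 226 to 231 as reported (first line, from limma) and under each alternative; each colour is a gene, filled points were called and open points were not. Every point lies right of 0; gene 231 (yellow) is open in most settings and falls to 0.37 with TPM, and gene 230 is open with edgeR and DESeq2 and was not tested with at least 10 fragments.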

How the data were processed

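Muscle RNA of 3 post-molt and 3 pre-molt crabs was sequenced as paired reads of 150 bases. The authors aligned them with HISAT2 2.0.5, counted fragments per gene with featureCounts 1.5.0-p3 (submitters' processing notes) and deposited FPKM. A second deposited table holds normalized signal, gene counts divided by 1 size factor per library by the authors, and gene lengths. Its fold changes and p-values are the authors' comparison and were not used, and 0 columns could not be mapped to a sample. The prefix of the column names differs between the tables, but stage letter and number match and the values agree up to gene length and 1 factor per library. The reference was an E. sinensis genome assembly from NCBI.

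Genes with a mean of at least 0.5 FPKM were tested with limma 3.58.1 (R 4.3.3) on log2(FPKM + 1) with an intensity trend, over the whole table. Genes were called at an adjusted p of 0.05 or less and a log2 fold change of at least 1 in size. A fold change on this scale understates the change of low genes. Whole fragments were recovered from the signal and FPKM values (100% of values whole within 0.001; 98.6% of 1684 known gene lengths recovered exactly). For 176 genes of the chromosome the length is the smallest that gives whole fragments. One fragment at the median gene length was worth 0.493 to 0.742 FPKM after and 0.175 to 0.236 FPKM before the molt. On the fragments edgeR 4.0.16 called 1971 genes in all, and DESeq2 1.42.0 was a further alternative. Intervals of 95% are exact and cover counting error only.

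Named were genes 226 to 231, the 3 listed genes on each side, the 10 strongest called genes in each direction elsewhere on the chromosome, its 5 most abundant genes and called genes of the study's lists. The members and lists were chosen with earlier results of these data known. Alternatives were pseudocounts of 0.1 and 5, no filter, a mean of at least 2 FPKM, TPM, quantile normalization, no trend, array weights, a replicate block and leaving out each library. A minimum of 10 fragments was chosen after seeing the data. Lists of tissue markers could not be used, since the files name no gene. Coordinates and sequences were not used here.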

Additional observations from a re-analysis of the deposited data

How the results depend on the processing

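In total 18 alternatives were run, and no called gene among those named changed direction. Over all named genes, called or not, 508 values under the alternatives kept their side of the thresholds, 61 lost the call and 3 gained it (genes 47, 225 and 233, not called in limma). The higher calls stayed within 1.5 times of 23 under every alternative. TPM gave 80 calls on the chromosome in place of 27, with 62 lower in place of 4. Over all genes it gave 6490 calls in place of 1316, with 5889 lower in place of 280. Lower calls were 0 with a pseudocount of 5, 2 with a mean of at least 2 FPKM, 8 with array weights and 1 with DESeq2, where higher genes were 100%, 92.3%, 75.8% and 96% of the calls. Over all tested genes lower calls were 147, 254, 764 and 289 under the same settings, in place of 280. The median log2 fold change of the chromosome moved from −0.04 to −0.12 (pseudocount 0.1), −0.010 (pseudocount 5), 0.081 (mean of at least 2 FPKM), −0.85 (TPM), −0.17 (quantile), 0.035 (array weights), −0.0039 (edgeR) and 0.0047 (DESeq2). That of genes 226 to 231 moved from 3.10 to 4.98 (pseudocount 0.1), 1.57 (pseudocount 5), 1.77 (TPM), 4.67 (edgeR) and 4.81 (DESeq2), and the log2 ratio of their summed FPKM from 2.26 to 1.04 (TPM). The cause was not tested.

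Leaving out 1 library at a time gave 18 to 27 calls, 17 to 24 higher and 1 to 4 lower, a median of −0.047 to −0.010 for the chromosome, 4 to 6 calls among genes 226 to 231 with a median of 2.69 to 3.37, and a log2 ratio of their summed FPKM of 1.83 to 2.56. The replicate block left 21 higher and 1 lower call, 95.5% higher, and 5 calls among genes 226 to 231. Equal replicate numbers are not known to pair the libraries. Deviations of libraries with equal numbers correlated at −0.03, −0.03 and −0.05, and those with unequal numbers at −0.03 to 0.06. With 3 libraries a stage such values cannot decide whether a pairing exists. With at least 10 fragments, a minimum chosen after seeing the data, 22 genes were higher and 4 lower, and gene 230 was not tested. Depth limits the low genes most: 8 tested genes had under 10 fragments over the 6 libraries.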

Other observations

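The 9 listed genes that were not tested had 1 to 14 fragments over the 6 libraries, and each reached 1.05 to 1.95 FPKM in its highest library. Genes 98, 125 and 297 (evm.TU.CM024162.1.98, evm.TU.CM024162.1.125 and evm.TU.CM024162.1.297), named after their values were seen, were called by edgeR but not by limma, with edgeR log2 fold changes of 1.98, −1.50 and 1.23. With TPM in limma gene 297 was at −0.11, in the other direction. Genes 79, 160 and 230 were called by limma but not by edgeR.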
